A study of Pyronema omphalodes CBS 100304 with 9 samples.

Results

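Molecular chaperones, heat shock proteins and peptidyl-prolyl isomerases are described here in Pyronema omphalodes, also known as Pyronema confluens, an ascomycete whose fruiting bodies are small open discs called apothecia. Members were chosen by the product description alone: it had to name a heat shock protein, an Hsp, a DnaJ protein, a chaperone, a T-complex protein, a prefoldin subunit or a peptidyl-prolyl isomerase. Heat shock factors, histone chaperones, proteasome chaperones and vacuolar transporter chaperones were left out. The rule found 86 of 13369 genes. They comprised 12 Hsp70 proteins and exchange factors, 12 J-domain proteins, 4 genes of Hsp90 and its co-chaperones, 2 disaggregases, 10 chaperonin subunits, 6 prefoldin subunits, 13 small heat shock proteins, 15 peptidyl-prolyl isomerases and 12 other chaperones. The label fits the descriptions with 1 exception: PCON_03829 reads as a T-complex protein 11-like protein, which is no chaperonin subunit. It was kept because the rule takes it. The deposited domains do not bear out every description. PCON_04053 and PCON_04471, described as Hsp70 protein 12A, had no domain hit, and isomerase E (PCON_12417) had RRM domains alone. PCON_11012 is named a chaperone for copper, and its domains were HMA and Sod_Cu. The product names come from sequence similarity, so each role given below is one known in another species.

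RNA sequencing covered 9 libraries in 4 groups, all from the strain CBS 100304, and the labels name no mutation or drug for any of them. Protoapothecia, an early stage of the fruiting body, came from slide cultures at 25 °C, aged 4 d, in a film of WPC medium (150 µl, 0.8% agar). They were fixed in ethanol at 4 °C and dissected with a laser. They form 3 independent biological replicates, A, B and C, and their RNA was linearly amplified before library preparation. The light condition of these slides is not stated. The 3 mycelium groups came from an earlier study, were extracted in bulk without amplification being named, and hold 2 libraries each. Sexual mycelium grew on the surface of WPC medium in constant light, and vegetative mycelium did so in constant darkness, both pooled from 3, 4 and 5 d. The vegetative pool joined cultures of 3 d: submerged in WPC in light, submerged in WPC in darkness, and on the surface of BMM medium in darkness. The growth temperature of the mycelium is not stated. The design text calls libraries 1 and 2 of a mycelium group technical replicates and names no separate cultures, so their spread may be technical. The test shares its estimate of spread over all 4 groups, so no p-value measures the spread of the mycelium libraries alone. Between protoapothecium libraries, 10.8% to 27.7% of tested members differed over 2-fold, beside 15.9% to 33.6% of all genes. Between the libraries of each mycelium group 4.82% did so, beside 9.09% to 11.4%. Dissection, fixation and amplification come with the protoapothecium group, so preparation and tissue cannot be told apart in its comparisons.

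Chaperones bind unfolded or partly folded proteins and help them fold, assemble, cross membranes or return from aggregates. Hsp70 works in cycles of ATP hydrolysis that J-domain proteins start and nucleotide exchange factors end, and it hands clients to Hsp90, which finishes kinases and receptors with the help of co-chaperones. Prefoldin delivers new actin and tubulin to the ring-shaped chaperonin CCT, and small heat shock proteins hold unfolded proteins until disaggregases and Hsp70 retrieve them. Peptidyl-prolyl isomerases turn the peptide bond before proline. Many members of these families are made in all growing cells, others mainly under heat, starvation or oxidative stress, and fungal conidia and resting cells store some of them.

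Total counts ranged from 5583951 in protoapothecia B to 24803660 in protoapothecia C. Levels below are CPM, read counts normalised to library size with TMM scaling, given as mean ± SD over the 3 protoapothecium libraries or the 2 libraries of a mycelium group. Log2 differences are the first group minus the second with their SE, and a member was called at an adjusted p below 0.05 in edgeR's quasi-likelihood test over 11787 genes. Of the 86 members, 83 passed the filter on low counts. As a check of the tissue labels, 27 genes chosen as fruiting body genes (lectins, tyrosinases, polyketide synthases, and genes with a pheromone receptor or mating type in their description) summed to 18520 to 27060 CPM in protoapothecia, 6435 to 8166 CPM in sexual mycelium and 2928 to 3254 CPM in the other mycelium libraries, and none of them was at 0 counts over a whole group. Most of the protoapothecium sum, 14280 to 21750 CPM, came from the lectins PCON_04233 and PCON_12683. The other 25 summed to 4241 to 5941 CPM in protoapothecia and 2343 to 3241 CPM in mycelium. Among them, PCON_10055, described as similar to a polyketide synthase ketoacyl reductase, had a mean of 2299 CPM in protoapothecia. Its means in the mycelium groups were 45.5 to 66.5 CPM. Several of the 25 went the other way. The tyrosinase PCON_01775 had 17.6 CPM in protoapothecia and 827 CPM in the pool, and the galectin PCON_06081 had 0.0879 and 176 CPM. The summed level of 7 light, clock and conidiation genes was 28.4 to 114 CPM in protoapothecia, with the highest value in protoapothecia C, where the gene PCON_08706, described as a conidiation-specific protein, alone had 91.8 CPM. It was 316 to 335 CPM in sexual mycelium, 899 to 1068 CPM in vegetative mycelium and 400.3 to 429 CPM in the pool. One of these 7, a conidiation-specific gene, had 0 counts in vegetative mycelium and in the pool.

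Chaperone genes took a far smaller part of the counts in protoapothecia than in mycelium. Their share was 0.525%, 0.504% and 0.606% in protoapothecia A, B and C. It was 2.32% and 2.52% in sexual mycelium, 2.47% and 2.63% in vegetative mycelium, and 2.69% and 3.01% in the vegetative pool. Every protoapothecium library lay below every mycelium library. The Hsp70 group differed most in share: it held 0.103% ± 0.00626 of counts in protoapothecia and 1.04% ± 0.0184 in sexual mycelium. Hsp90 with its co-chaperones held 0.051% ± 0.00431 and 0.518% ± 0.0331. Without the Hsp70 gene PCON_06550, the Hsp90 gene PCON_11855 and the cyclophilin PCON_12423, the remaining members still held 0.494% ± 0.0592 in protoapothecia against 1.37% ± 0.0437 in sexual mycelium, 1.52% ± 0.0873 in vegetative mycelium and 1.61% ± 0.13 in the pool. These shares are a description with no test. In such samples, fewer cells that express a gene and less RNA per cell cannot be told apart.

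**Figure D1:**
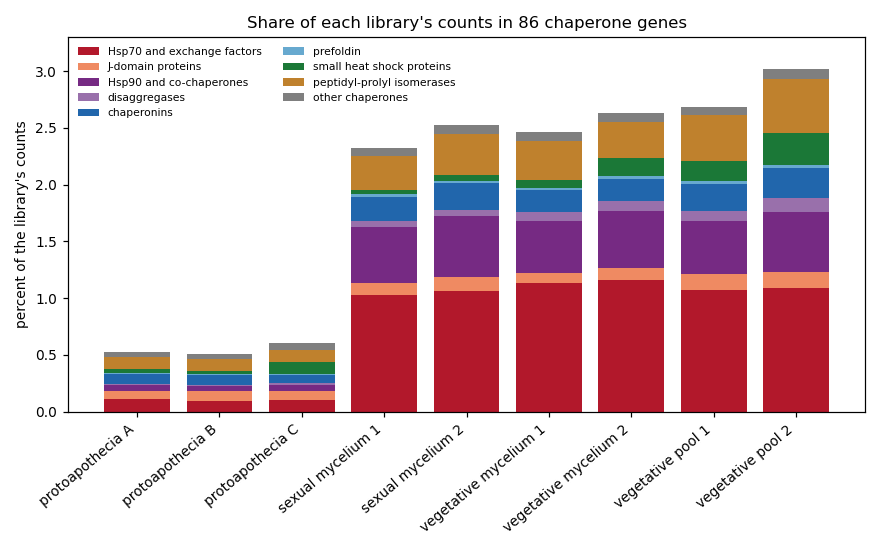
Percent of each library's counts (y axis, linear, from 0) in the 86 chaperone genes, stacked by family, for the 9 libraries (x axis). The 3 protoapothecium bars end between 0.504% and 0.606%, and the 6 mycelium bars between 2.32% and 3.01%, where the Hsp70 and Hsp90 families fill most of each bar.

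By gene, 43 of 83 tested members (51.8%) had a lower level in protoapothecia than sexual mycelium and 16 (19.3%) a higher one. Over all 11787 genes tested, 34.5% were lower and 26.7% higher. Against vegetative mycelium, 42 were lower (background 32.8%) and 14 higher (background 36.4%). Against the vegetative pool, 46 were lower (background 34.4%) and 13 higher (background 34.8%). The members' median log2 difference was −0.81, −0.63 and −1.13 in these comparisons, beside −0.14, 0.15 and 0.05 for all genes tested. With RLE in place of TMM scaling the medians of all genes became 0.03, 0.27 and 0.23, and those of the members −0.63, −0.51 and −0.97. The 3 comparisons share the protoapothecium libraries, so they are given side by side and do not count as separate evidence. In all 3, 38 members (45.8%) were lower, 9 (10.8%) were higher and 16 (19.3%) were called in none, beside 24.9%, 20.5% and 16.7% of all genes tested.

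Gene length moved with this result. The genes tested were split by length of the gene model into 3 classes of about equal size. In the longest class, 1766 bases and more, 27 of 38 members were lower than in sexual mycelium, beside 43.5% of all genes of that class. In the middle class 8 of 21 were lower beside 31% of all genes, and in the shortest class 8 of 24 beside 29.1%. With an offset for gene length in each library, 38 of 83 members were lower and 17 higher, beside 3558 and 3774 of 11787 genes. The medians were −0.38 for the members and 0.14 for all genes. Leaving out sexual mycelium 1 or sexual mycelium 2 left 9 members higher in each case, and 35 to 44 were lower whichever library was left out. Against vegetative mycelium, 8 were higher without vegetative mycelium 1, and against the pool 6 were higher without pool 1. Of the calls against sexual mycelium, some lower ones and most higher ones ended without 1 library or another. How many calls of all genes ended in this way was not counted.

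**Figure D2:**
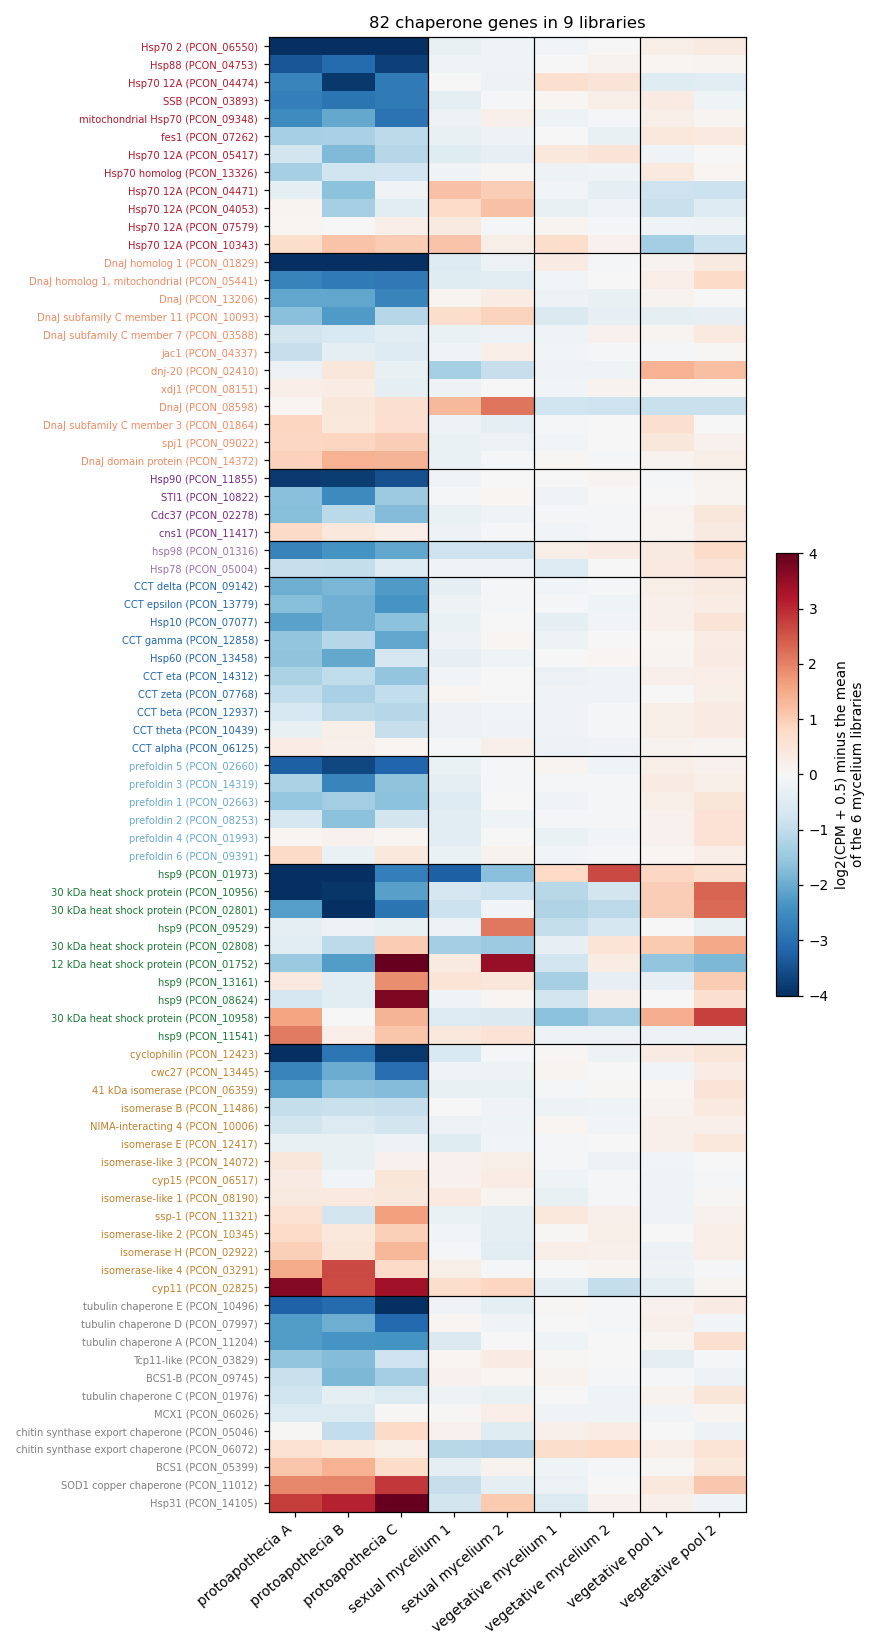
Each row is 1 of 82 of the 83 tested members, ordered by family (row label colour) and within it by the difference in protoapothecia, and each column is a library. Colour is log2(CPM + 0.5) minus the mean of the 6 mycelium libraries, and values beyond 4 in either direction share the end colours. Blue rows in the 3 protoapothecium columns dominate the Hsp70, Hsp90 and chaperonin families, red rows occur among J-domain proteins, isomerases and other chaperones, and small heat shock proteins differ between libraries of 1 group.

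**Figure D3:**
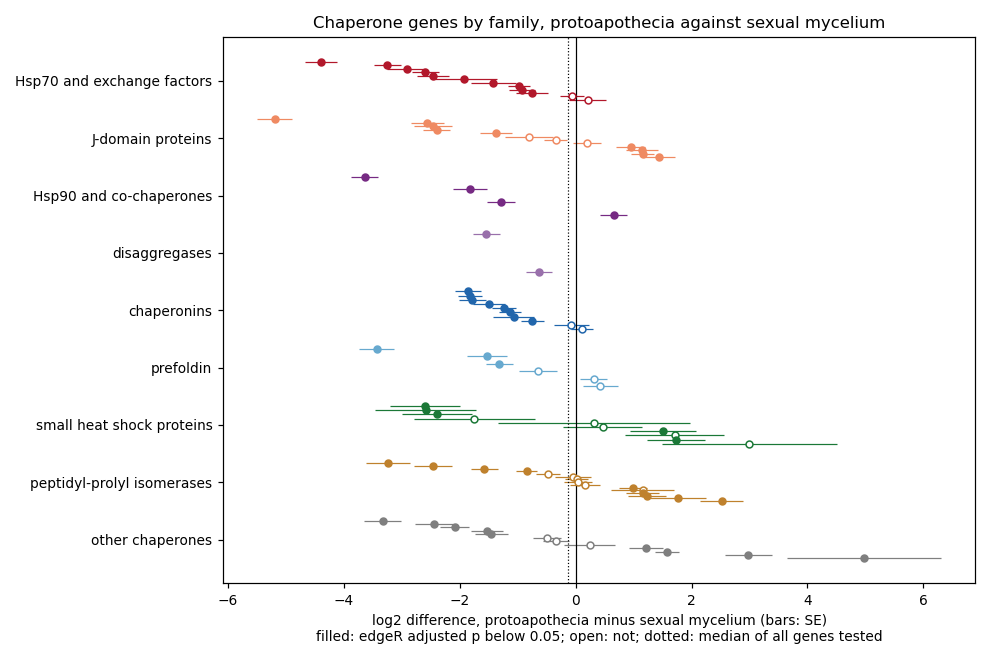
Log2 difference between protoapothecia and sexual mycelium (x axis, points with SE bars) for each tested member, by family (y axis). Filled points passed the test, and the dotted line marks the median of all genes tested, −0.14. The 10 called Hsp70 members and the 8 called chaperonin subunits lie to the left, while J-domain proteins and isomerases spread to both sides.

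In the Hsp70 family, 10 of 12 members (83.3%) were lower in protoapothecia than in sexual mycelium, beside 34.5% of all genes, while 2 were not called. PCON_06550, an Hsp70 of the cytosolic kind (scaffold 270, 13207 to 15734, minus strand, 3 exons, 653 residues), had 155 CPM in protoapothecia A, 239 CPM in B and 149.7 CPM in C. Sexual mycelium had 3666 and 3953 CPM, vegetative mycelium 4149 and 4497 CPM, and the pool 5249 and 5820 CPM. The lowest mycelium library thus lay far above the highest protoapothecium library. The log2 difference was −4.39 ± 0.284 to sexual mycelium (edgeR adjusted p = 4.28e-06), which is 21-fold. Per kb of gene model, this gene ranked 17th among the members in protoapothecia and first in each mycelium group, where it stood at place 15 to 23 of all genes.

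Other Hsp70s and exchange factors were lower as well. Hsp88 (PCON_04753), an Hsp110-type exchange factor, had 71.2, 90.9 and 57.8 CPM in protoapothecia and 683 and 707 CPM in sexual mycelium, with no overlap, and its log2 difference was −3.25 ± 0.236 (edgeR adjusted p = 6.96e-06). The ribosome-bound SSB (PCON_03893), which meets nascent chains in yeast, had 135, 118 and 125 CPM against 679 and 845 CPM (−2.60 ± 0.23). Mitochondrial Hsp70 (PCON_09348), the import motor of the matrix, had 62.8, 86.8 and 46.7 CPM against 305 and 414 CPM (−2.46 ± 0.276). The exchange factor fes1 (PCON_07262) had 35.4, 36.1 and 42.7 CPM against 73.1 and 77.3 CPM (−0.98 ± 0.195). Each of these 4 was also called lower against vegetative mycelium and against the pool. PCON_13326, described as an Hsp70 homolog of 926 residues, was lower by a smaller amount (−0.92 ± 0.23), and that call ended without sexual mycelium 2 (adjusted p = 0.0575).

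The family also holds 6 genes described as Hsp70 protein 12A, a divergent branch whose clients are little known. Of these, 4 (66.7%) were lower than in sexual mycelium, beside 34.5% of all genes, and PCON_07579 and PCON_10343 were not called. PCON_04474 was the most abundant of them, with 396, 172 and 353 CPM in protoapothecia, 2461 and 2173 CPM in sexual mycelium, 3894 and 3557 CPM in vegetative mycelium, and 1766 and 1805 CPM in the pool. All protoapothecium libraries lay below all mycelium libraries, and the log2 difference to sexual mycelium was −2.91 ± 0.336 (edgeR adjusted p = 8.32e-05). The calls of PCON_04053, PCON_04471 and PCON_05417 ended without sexual mycelium 2 (adjusted p up to 0.0861, 0.0785 and 0.171), and those of PCON_04471 and PCON_05417 also without sexual mycelium 1. That of PCON_05417 further ended without protoapothecia C or any library of the vegetative groups. PCON_07579 had 98.2 to 119 CPM in protoapothecia and 86.3 to 128 CPM in the mycelium libraries and was called in none of the 3 protoapothecium comparisons. PCON_10343 had 113, 154 and 141 CPM in protoapothecia, 153 and 81.9 CPM in sexual mycelium, 113 and 77.8 CPM in vegetative mycelium, but 26.7 and 38.6 CPM in the pool. It was higher than in the pool in protoapothecia (2.06 ± 0.344), in sexual mycelium (1.85 ± 0.36) and in vegetative mycelium (1.55 ± 0.357). The last of these calls ended without protoapothecia A (adjusted p = 0.0519) and without any library of the vegetative mycelium or the pool (adjusted p between 0.0798 and 0.297).

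J-domain proteins, which bring clients to Hsp70 and trigger its ATP hydrolysis, went both ways: 5 of 12 (41.7%) were lower than in sexual mycelium and 4 (33.3%) were higher, beside 34.5% and 26.7% of all genes. The largest difference was in PCON_01829 (scaffold 114, 65500 to 66865, minus strand, 2 exons), described as a mitochondrial DnaJ homolog. It had 0.647, 0.642 and 0.692 CPM in protoapothecia, from 13, 3 and 14 counts. Sexual mycelium had 22 and 27 CPM, vegetative mycelium 40.4 and 30.5 CPM, and the pool 35.6 and 41.7 CPM. The groups did not overlap, and the log2 difference to sexual mycelium was −5.19 ± 0.303 (edgeR adjusted p = 3.68e-06), or 36.5-fold. A second gene with the mitochondrial description, PCON_05441, had 7.77, 6.84 and 6.67 CPM against 36.9 and 38.1 CPM in sexual mycelium (−2.40 ± 0.23). PCON_13206 and PCON_10093 (DnaJ subfamily C member 11, a protein of the mitochondrial membranes in animals) were lower by −2.56 ± 0.284 and −2.46 ± 0.327.

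The 4 J-domain genes that were higher in protoapothecia were PCON_14372, spj1, dnj-20 and DnaJ subfamily C member 3. PCON_14372 had 26.5, 37.2 and 36.2 CPM in protoapothecia, 11.4 and 13.1 CPM in sexual mycelium, 14.3 and 13 CPM in vegetative mycelium, and 15.5 and 16.5 CPM in the pool, so the lowest protoapothecium library was above every mycelium library (1.44 ± 0.276, edgeR adjusted p = 0.00158). The spj1 gene (PCON_09022), predicted for the endoplasmic reticulum, had 127, 129.6 and 139.8 CPM against 59.2 and 59.5 CPM in sexual mycelium (1.15 ± 0.193), and its highest mycelium value was 96.5 CPM in pool 1. DnaJ subfamily C member 3 (PCON_01864), a co-chaperone of the endoplasmic reticulum in animals, had 254, 188 and 221 CPM against 120 and 109 CPM (0.95 ± 0.245). The call of PCON_01864 ended without sexual mycelium 2 (adjusted p = 0.0665), that of PCON_14372 against the pool without pool 1 (adjusted p = 0.0563), and that of PCON_09022 against the pool without pool 2 (adjusted p = 0.174).

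PCON_02410, described as dnj-20, a J-domain protein named from Caenorhabditis, had the highest level per kb of its family in protoapothecia. It had 121, 195 and 114 CPM in protoapothecia, 55.7 and 74.3 CPM in sexual mycelium, 128 and 126 CPM in vegetative mycelium, and 376 and 325 CPM in the pool. Sexual mycelium was the lowest group and the pool the highest, with protoapothecia overlapping vegetative mycelium. Its log2 difference was 1.14 ± 0.279 to sexual mycelium, which ended as a call without sexual mycelium 1 (adjusted p = 0.065), and −1.29 ± 0.265 to the pool.

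PCON_08598 had a protoapothecium level below that of sexual mycelium but above those of both vegetative groups. It was the only member with these 3 calls, 1.2% of those tested, beside 1.71% of all genes tested. The dnj-20 gene was also called in opposite directions, above sexual mycelium and below the pool. PCON_08598, a DnaJ-like gene (scaffold 391, 28646 to 31980, plus strand, 9 exons, 748 residues), had 52.3, 69.3 and 78.4 CPM in protoapothecia. It had 123 and 220 CPM in sexual mycelium, 28.4 and 28 CPM in vegetative mycelium, and 26.7 and 26.6 CPM in the pool. The 3 levels did not overlap. The log2 difference was −1.37 ± 0.275 to sexual mycelium (edgeR adjusted p = 0.00215), 1.24 ± 0.293 to vegetative mycelium (adjusted p = 0.00417) and 1.32 ± 0.293 to the pool (adjusted p = 0.003). Between mycelium groups, its log2 difference was 2.61 ± 0.325 from sexual to vegetative mycelium and 2.69 ± 0.326 from sexual mycelium to the pool, and both calls held whichever library was left out (adjusted p up to 0.00675 and 0.00595).

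Hsp90 and its loading partners were lower in protoapothecia. PCON_11855, the single gene with the Hsp90 domain in the table (scaffold 647, 11434 to 15802, minus strand, 5 exons, 709 residues), had 242, 250.4 and 301 CPM in protoapothecia. Sexual mycelium had 3148 and 3448 CPM, vegetative mycelium 3431 and 3782 CPM, and the pool 3284 and 3820 CPM. Every mycelium library was above every protoapothecium library, and the mycelium groups overlapped each other. The log2 difference to sexual mycelium was −3.64 ± 0.232 (edgeR adjusted p = 4.02e-06), or 12.5-fold, and −2.98 with the gene-length offset. STI1 (PCON_10822), which bridges Hsp70 and Hsp90, had 211, 117 and 245 CPM against 638 and 718 CPM (−1.83 ± 0.294). Cdc37 (PCON_02278), the kinase-loading co-chaperone, had 100, 153 and 97 CPM against 271 and 294 CPM (−1.28 ± 0.243). The co-chaperone cns1 (PCON_11417) went the other way, with 56.9, 44.7 and 39.9 CPM in protoapothecia against 28 and 31.8 CPM (0.66 ± 0.236, edgeR adjusted p = 0.0362). That call ended without protoapothecia A and without any 1 of the 6 mycelium libraries (adjusted p from 0.0542 to 0.181).

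Both disaggregases, ring-shaped ATPases that pull proteins out of aggregates, were lower in protoapothecia, compared with sexual mycelium. The hsp98 gene (PCON_01316, scaffold 1083, 81679 to 84659, plus strand, 1 exon) had 99.4, 122 and 149.4 CPM in protoapothecia, 362 and 357 CPM in sexual mycelium, 746 and 802 CPM in vegetative mycelium, and 809 and 1069 CPM in the pool. The order was protoapothecia, sexual mycelium, then the vegetative groups, with the vegetative groups not told apart (−0.28, not called). Its log2 difference was −1.54 ± 0.233 to sexual mycelium, and sexual mycelium was in turn lower than vegetative mycelium (−1.10 ± 0.261, edgeR adjusted p = 0.0105) and the pool (−1.38 ± 0.262, adjusted p = 0.0037). The call between sexual and vegetative mycelium ended without sexual mycelium 1, sexual mycelium 2 or vegetative mycelium 2 (adjusted p = 0.066, 0.0716 and 0.0687). Hsp78 (PCON_05004), the mitochondrial relative, had 33.3, 32.5 and 42.7 CPM in protoapothecia against 56.5 and 55.9 CPM (−0.63 ± 0.229, edgeR adjusted p = 0.0369). That call ended with RLE scaling (adjusted p = 0.105), with DESeq2 (adjusted p = 0.0969), with the gene-length offset (adjusted p = 0.913), and without protoapothecia A or B, vegetative mycelium 1 or any library of sexual mycelium or the pool (adjusted p from 0.0536 to 0.128).

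Of 10 chaperonin subunits, 8 (80%) were lower in protoapothecia than in sexual mycelium, beside 34.5% of all genes. They include the mitochondrial pair Hsp60 and Hsp10, which form the folding cage of the matrix. Hsp60 (PCON_13458) had 96.5, 70.8 and 187 CPM in protoapothecia and 235 and 261 CPM in sexual mycelium (−1.07 ± 0.352, edgeR adjusted p = 0.0255), a call that ended without protoapothecia A or either sexual mycelium library (adjusted p up to 0.116). Hsp10 (PCON_07077) had 22.4, 26.5 and 31.9 CPM against 83.4 and 102 CPM (−1.78 ± 0.23). Its gene model overlaps a neighbour and counting is not stated to use strand, so its values are uncertain.

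The cytosolic chaperonin CCT, a double ring that folds actin and tubulin, is built from 8 different subunits in equal number. Of these, 6 (75%) were lower in protoapothecia than in sexual mycelium, beside 34.5% of all genes. They included epsilon (−1.86 ± 0.222), delta (−1.82 ± 0.204) and gamma (−1.50 ± 0.273). Eta (−1.23 ± 0.208), zeta (−1.13 ± 0.19) and beta (−0.74 ± 0.206) made up the rest. The beta call ended without sexual mycelium 2 (adjusted p up to 0.0739). Subunit alpha (PCON_06125) had 198, 186 and 170.3 CPM in protoapothecia and 158 and 184 CPM in sexual mycelium, and theta (PCON_10439) had 185, 269 and 121 CPM against 194 and 209 CPM. Neither was called, with log2 differences of 0.11 and −0.07, which does not show that they were equal. Theta was called lower than in the pool without protoapothecia B (log2 difference −0.85, edgeR adjusted p = 0.00728).

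Subunit levels within the complex were less even in protoapothecia. On the scale of CPM per kb, the highest and lowest of the 8 CCT subunits differed 3.69-fold, 5.54-fold and 4.01-fold in protoapothecia A, B and C. In the 6 mycelium libraries they differed 2.3-fold to 2.65-fold. The SD of the log2 levels was 0.712 to 0.873 in protoapothecia and 0.39 to 0.416 in mycelium, with no overlap. The beta subunit (PCON_12937) was lowest in all 6 mycelium libraries, and its gene model also carries Sec10 and F-box domains, so its length, and with it the level per kb, is uncertain. Without it the other 7 differed 3.69-fold to 4.92-fold in protoapothecia and 1.3-fold to 1.74-fold in mycelium. Prefoldin showed the same pattern: its 6 subunits spanned 32.2-fold, 22.4-fold and 23.6-fold in protoapothecia and 4.88-fold to 5.89-fold in mycelium. Prefoldin 2 (PCON_08253) was lowest in all 6 mycelium libraries. Its gene model of 1377 bases holds 981 bases of 3' untranslated sequence, so its level per kb, and the mycelium span, depends on that model. These spreads are descriptions with no test. The part of amplification, dissection and gene length in them was not tested.

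Prefoldin, the 6-subunit jellyfish-shaped complex that passes actin and tubulin to CCT, had 3 subunits (50%) lower than in sexual mycelium, beside 34.5% of all genes. Subunit 5 (PCON_02660) had 2.09, 1.5 and 2.23 CPM in protoapothecia, 20 and 23.4 CPM in sexual mycelium, 26.1 and 21.3 CPM in vegetative mycelium, and 28.6 and 27.3 CPM in the pool, so the groups were about an order of magnitude apart (−3.44 ± 0.294, edgeR adjusted p = 1.51e-05). Subunit 3 (PCON_14319) had 17.1, 6.2 and 13.4 CPM against 32.7 and 39.4 CPM (−1.53 ± 0.352). Subunit 1 (PCON_02663) had 16.7, 18.6 and 15.6 CPM against 34.7 and 49.5 CPM (−1.32 ± 0.231). Subunits 4 and 6 had log2 differences of 0.31 and 0.42 and were called in none of the 3 protoapothecium comparisons, and subunit 2 was called lower against the vegetative groups (−0.88 ± 0.328 and −1.35 ± 0.327). The calls of subunit 2 ended without any 1 of the mycelium libraries against vegetative mycelium and without pool 2 against the pool (adjusted p up to 0.131 and 0.0527).

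**Figure D4:**
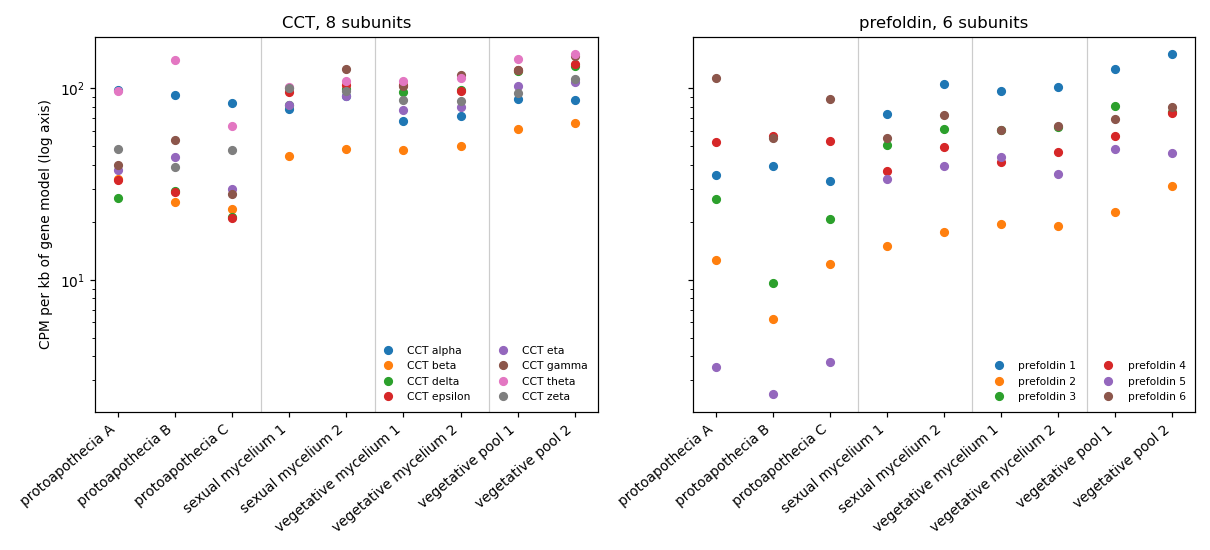
CPM per kb of gene model (y axis, log scale) for the 8 subunits of CCT (left) and the 6 subunits of prefoldin (right) in the 9 libraries (x axis), 1 colour a subunit. In each panel, points lie closer together in the mycelium libraries than in protoapothecia. In protoapothecia, CCT alpha and theta and prefoldin 4 and 6 stand at the top and prefoldin 5 at the bottom.

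Small heat shock proteins fell into kinds that the deposited domain annotation separates: 5 genes with the HSP20 domain of the alpha-crystallin type, described as 30 kDa heat shock proteins, and 8 genes with the HSP9/HSP12 domain, short hydrophilic proteins of 79 to 98 residues. These are all the genes with either domain in the table. Of the 10 that could be tested, 3 (30%) were lower and 2 (20%) higher in protoapothecia than in sexual mycelium. Over all genes tested these shares were 34.5% and 26.7%.

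Among the HSP20 genes, PCON_02808 (scaffold 1330, 94238 to 95108, minus strand, 1 exon) had the highest level per kb of all members in protoapothecia. It had 354, 237 and 978 CPM in protoapothecia, 189 and 179 CPM in sexual mycelium, 392 and 709 CPM in vegetative mycelium, and 1002 and 1407 CPM in the pool. Sexual mycelium was lowest and the pool highest, and protoapothecia overlapped vegetative mycelium, with C high. The log2 difference to sexual mycelium was 1.51 ± 0.564 (edgeR adjusted p = 0.042). Without protoapothecia C it was 0.72 (adjusted p = 0.0942), and the call also ended without either sexual mycelium library (adjusted p = 0.148 and 0.168) or either pool library (adjusted p = 0.0517 and 0.0517).

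A pair of HSP20 genes lie close together on scaffold 566, both on the minus strand, and were called in opposite directions. PCON_10956 (116400 to 117500) had 7.62, 9.62 and 33 CPM in protoapothecia, 95.4 and 83.5 CPM in sexual mycelium, 70.1 and 90.8 CPM in vegetative mycelium, and 300 and 767 CPM in the pool. PCON_10958 (119602 to 120678) had 76.3, 25.2 and 65.5 CPM, 17.1 and 16.5 CPM, 7.68 and 9.22 CPM, and 69.7 and 168 CPM in the same order. The former was lower in protoapothecia than in sexual mycelium (−2.39 ± 0.599, edgeR adjusted p = 0.00689) and the latter higher (1.74 ± 0.502, adjusted p = 0.014). Without protoapothecia C the first difference was −3.37, and the second call ended without sexual mycelium 1 or 2 (adjusted p = 0.0758 and 0.0839). PCON_02801 was low in protoapothecia, at 3.68, 0.428 and 2.03 CPM against 10.2 and 17.1 CPM in sexual mycelium (−2.60 ± 0.606, and −3.20 without protoapothecia A). The fifth gene, PCON_02791 on scaffold 1330, had 0 counts in all 9 libraries.

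All 4 counted HSP20 genes were lower in sexual mycelium than in the vegetative pool. Their log2 differences were −2.82 ± 0.551 (PCON_10958), −2.71 ± 0.624 (PCON_02808), −2.58 ± 0.687 (PCON_10956) and −2.24 ± 0.663 (PCON_02801). Over all genes, 9.48% were lower in that comparison. PCON_10958 and PCON_02801 were also lower in vegetative mycelium than in the pool (−3.81 ± 0.58 and −2.96 ± 0.686). Pool 2 was above pool 1 in each of the 4, by 1.40-fold to 2.56-fold. Without pool 2 the differences between sexual mycelium and the pool were −2.05 for PCON_10958 (adjusted p = 0.0308), −1.75 for PCON_10956 (adjusted p = 0.132) and −1.45 for PCON_02801 (adjusted p = 0.254). Without either sexual mycelium library the calls of PCON_02808 (adjusted p = 0.0706 and 0.0731), PCON_10956 (adjusted p = 0.106 and 0.12) and PCON_02801 (adjusted p = 0.202 and 0.0848) ended. Without vegetative mycelium 1 or 2 the PCON_10958 difference to the pool missed the threshold (adjusted p = 0.0963 and 0.077), and for PCON_02801 this held without any 1 mycelium library (adjusted p from 0.066 to 0.257).

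The HSP9/HSP12 genes, relatives of a yeast protein that protects membranes and is made in stationary phase, differed widely between libraries of 1 group. PCON_01752 had 0.697 and 0.214 CPM in protoapothecia A and B but 73.6 CPM in C, 3.79 CPM in sexual mycelium 1 but 36.7 CPM in sexual mycelium 2, 1.48 and 3.61 CPM in vegetative mycelium, and 0.614 and 0.458 CPM in the pool. PCON_08624 had 0.299, 0.428 and 16.6 CPM in protoapothecia and at most 1.5 CPM elsewhere. Neither was called in any comparison. The conidiation-specific gene PCON_08706 was likewise high in protoapothecia C, with 91.8 CPM against 1.69 and 0.641 CPM in A and B, while the other 6 light, clock and conidiation genes summed to 22.7 CPM in C and to 30.2 and 27.8 CPM in A and B. The part of that difference in these values was not tested.

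PCON_01973 (scaffold 1162, 51696 to 52568, plus strand) was the most abundant of this kind in the vegetative groups. It had 2.29, 0 and 16.5 CPM in protoapothecia, 11.3 and 34.3 CPM in sexual mycelium, 195 and 706 CPM in vegetative mycelium, and 199 and 175 CPM in the pool. Protoapothecia overlapped sexual mycelium, and both lay below the vegetative groups. The log2 difference was −6.05 ± 1.18 to vegetative mycelium (edgeR adjusted p = 0.00142) and −4.78 ± 1.12 to the pool (adjusted p = 0.00416). Sexual mycelium was lower than vegetative mycelium (−4.30 ± 1.29, adjusted p = 0.0318), a call that ended without any 1 of the 6 mycelium libraries (adjusted p from 0.0503 to 0.198). Without protoapothecia C the difference to sexual mycelium, −1.75 and not called, became −3.80 (adjusted p = 0.00759). PCON_11541 had 1.99, 0.214 and 0.791 CPM in protoapothecia, 0.288 and 0.375 CPM in sexual mycelium and 0 counts in the 4 other libraries, and PCON_09529 stayed below 5 CPM in every library, so their calls rest on few counts. PCON_09502 and PCON_09530 did not pass the filter.

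**Figure D5:**
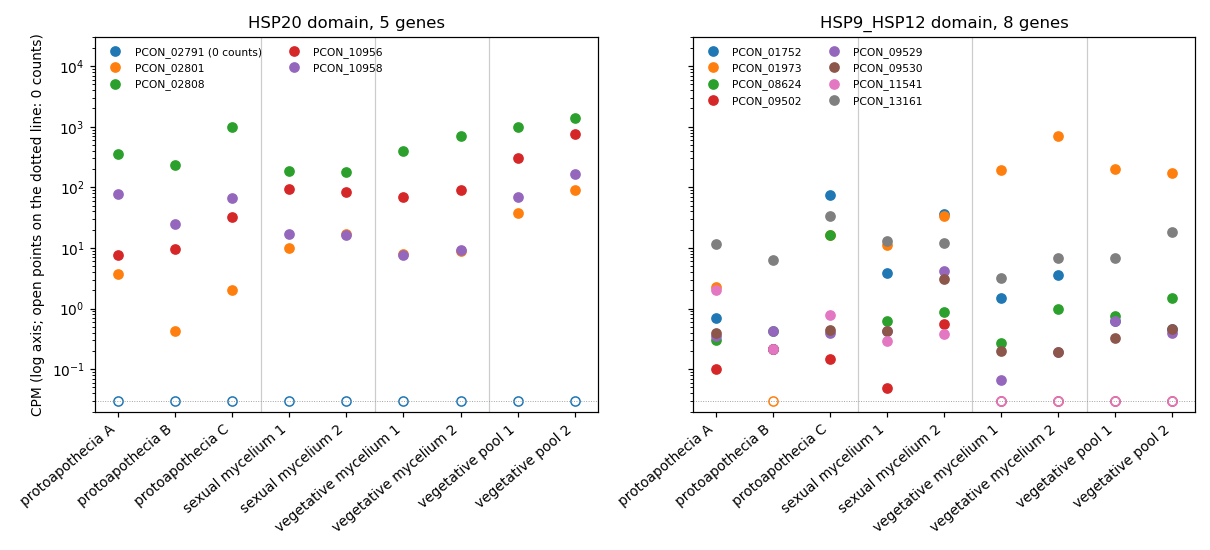
CPM (y axis, log scale, with open points for 0 counts) of the 5 HSP20 genes (left) and the 8 HSP9/HSP12 genes (right) in the 9 libraries (x axis). The 4 counted HSP20 genes each have their highest level in pool 2, and PCON_01752 and PCON_08624 are high in protoapothecia C alone among the 3 protoapothecium libraries.

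Peptidyl-prolyl isomerases went both ways, with 5 of 15 (33.3%) higher and 4 (26.7%) lower in protoapothecia than in sexual mycelium, beside 26.7% and 34.5% of all genes. The most abundant, the cyclophilin PCON_12423 (scaffold 678, 359223 to 360762, plus strand, 4 exons), had 109, 269 and 138 CPM in protoapothecia, 1326 and 1916 CPM in sexual mycelium, 2069 and 1744 CPM in vegetative mycelium, and 2501 and 2825 CPM in the pool. All protoapothecium libraries were below all mycelium libraries (−3.24 ± 0.383, edgeR adjusted p = 9.57e-05). The other lower isomerases were cwc27 (PCON_13445), part of the spliceosome in yeasts (−2.46 ± 0.326), the 41 kDa isomerase (PCON_06359), of the kind that docks on Hsp90 (−1.58 ± 0.231), and isomerase B (PCON_11486), a cyclophilin of the secretory pathway (−0.84 ± 0.178).

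The largest called increase in this family was in cyp11 (PCON_02825, scaffold 1330, 137377 to 139800, minus strand, 2 exons). It had 213, 100.5 and 171 CPM in protoapothecia, 26.9 and 29.6 CPM in sexual mycelium, 12.4 and 8.13 CPM in vegetative mycelium, and 12.6 and 17.7 CPM in the pool. The lowest protoapothecium library was more than 3 times the highest mycelium library. The log2 difference was 2.52 ± 0.368 to sexual mycelium (edgeR adjusted p = 0.000333) and 3.98 ± 0.401 to vegetative mycelium (adjusted p = 2.57e-05). It was also higher in sexual than in vegetative mycelium (1.46 ± 0.378, adjusted p = 0.0169), a call that ended without sexual mycelium 1, sexual mycelium 2 or vegetative mycelium 2 (adjusted p = 0.0552, 0.0791 and 0.137).

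Isomerase-like 4 (PCON_03291), a cyclophilin with an RNA-binding domain in other fungi, had 81.9, 183 and 49 CPM in protoapothecia against 34 and 27.3 CPM in sexual mycelium. Its log2 difference was 1.76 ± 0.483, was 1.11 without protoapothecia B, and missed the threshold without sexual mycelium 2 (adjusted p = 0.0821). Isomerase H (PCON_02922) and isomerase-like 2 (PCON_10345) had log2 differences of 1.23 ± 0.323 and 0.99 ± 0.243, and both calls ended without sexual mycelium 2 (adjusted p = 0.0828 and 0.0653).

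Of the tubulin chaperones, which assemble the alpha and beta tubulin pair after CCT has folded them, A, D and E were lower in protoapothecia than in sexual mycelium. Chaperone E (PCON_10496) had 4.33, 4.92 and 2.27 CPM in protoapothecia, 40.3 and 34.9 CPM in sexual mycelium, 46.1 and 43.4 CPM in vegetative mycelium, and 50.5 and 56.7 CPM in the pool (−3.33 ± 0.322, edgeR adjusted p = 2.99e-05). Chaperone D (PCON_07997) had 9.66, 11.8 and 4.99 CPM against 50.3 and 43.4 CPM (−2.44 ± 0.334), and −1.54 with the gene-length offset. Chaperone A (PCON_11204) had 20.8, 19.3 and 18.6 CPM against 66.6 and 99.6 CPM (−2.08 ± 0.247). Chaperone C was called lower against the pool alone (−0.93 ± 0.223), and that call ended without pool 2 (adjusted p = 0.0623).

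Among the members called higher than in sexual mycelium, Hsp31 and a copper chaperone had the largest log2 differences. The copper chaperone of superoxide dismutase (PCON_11012, scaffold 569, 30696 to 32972, minus strand, 5 exons) had 59.5, 61.4 and 112 CPM in protoapothecia, 7.91 and 11.8 CPM in sexual mycelium, 13.1 and 15.6 CPM in vegetative mycelium, and 20.6 and 33.4 CPM in the pool. Every protoapothecium library was above every mycelium library (2.98 ± 0.403, edgeR adjusted p = 0.00021). Against the pool the difference was 1.53 ± 0.374 and missed the threshold without pool 1 (adjusted p = 0.0553). Hsp31 (PCON_14105, scaffold 961, 58820 to 59622, minus strand), a protein of the DJ-1 type that removes glyoxals in yeast, had 13.7, 17.1 and 189 CPM in protoapothecia. It had 0.767 and 3.86 CPM in sexual mycelium and 0.943 to 1.94 CPM in the other libraries. The groups did not overlap and protoapothecia C was more than 10 times as high as A and B. The log2 difference to sexual mycelium was 4.97 ± 1.33 (edgeR adjusted p = 0.00946), 2.75 without protoapothecia C (adjusted p = 0.0109), and 4.26 without sexual mycelium 1, where the call ended (adjusted p = 0.0724). Against vegetative mycelium and the pool, the values without C were 3.47 and 3.24, and the calls ended without vegetative mycelium 1 (adjusted p = 0.0538) and without pool 1 or 2 (adjusted p = 0.0509 and 0.0608).

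A chitin synthase export chaperone (PCON_06072), a membrane protein that lets chitin synthase leave the endoplasmic reticulum in yeast, was lowest in sexual mycelium. It had 162, 142 and 125 CPM in protoapothecia, 49.3 and 46.7 CPM in sexual mycelium, 174 and 184 CPM in vegetative mycelium, and 128 and 155 CPM in the pool. Sexual mycelium was below protoapothecia (1.57 ± 0.209), vegetative mycelium (−1.89 ± 0.224) and the pool (−1.56 ± 0.222), and protoapothecia overlapped the vegetative groups or were not called against them (−0.32 and 0.02). The other gene with this description, PCON_05046, was called in none of the 3 protoapothecium comparisons. The BCS1 genes, whose yeast relative inserts an iron-sulphur protein into the respiratory chain, differed in direction: PCON_05399 was higher than in sexual mycelium (1.21 ± 0.299, a call that ended without sexual mycelium 1, adjusted p = 0.0676) and PCON_09745 lower (−1.46 ± 0.287).

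Between the mycelium groups few members were called. From sexual to vegetative mycelium, 4 of 83 were higher in sexual mycelium (background 20.6%) and 4 lower (background 9%). Against the pool, 5 were higher in sexual mycelium (background 19.8%) and 9 lower (background 9.48%). With the gene-length offset the lower counts were 14 and 21. Over all genes that offset moved the calls between sexual and vegetative mycelium from 2423 higher and 1061 lower to 2191 higher and 1759 lower, and those between sexual mycelium and the pool from 2331 and 1117 to 2174 and 1696. Between vegetative mycelium and the pool, 1 member was higher in vegetative mycelium (background 1.79%) and 3 were lower (background 3.41%). Few of these calls held with each library left out in turn: whichever it was, 1 of the 4 lower and 1 of the 4 higher calls between sexual and vegetative mycelium held, and 4 of the 9 lower and 2 of the 5 higher calls between sexual mycelium and the pool. Of the calls between vegetative mycelium and the pool, the higher 1 ended without protoapothecia A or any library of either group, and 0 of 3 lower ones held throughout. The higher member was the Hsp70 12A gene PCON_10343, and the 3 lower ones were dnj-20 and the HSP20 genes PCON_10958 and PCON_02801. How many calls of all genes held with each library left out was not counted.

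The members that set the sexual mycelium apart from the vegetative ones were few. DnaJ PCON_08598 and PCON_10093 were higher in sexual mycelium than in both vegetative groups. PCON_10093 had 51 and 58.3 CPM in sexual mycelium, 20.8 and 24.3 CPM in vegetative mycelium, and 23.8 and 24.7 CPM in the pool (1.28 ± 0.36 and 1.17 ± 0.359). Its calls ended without any library of the groups compared (adjusted p from 0.0775 to 0.162), and that against the pool also ended without vegetative mycelium 1 or 2 (adjusted p = 0.0587 and 0.063). The dnj-20 gene was lowest in sexual mycelium, with differences of −0.96 ± 0.297 to vegetative mycelium and −2.43 ± 0.31 to the pool, and vegetative mycelium lay below the pool (−1.47 ± 0.3). The first and last of these 3 calls ended with RLE scaling (adjusted p = 0.0514 and 0.0518) and without any library of the groups compared (adjusted p from 0.0608 to 0.216). The first also ended without pool 1 or 2 (adjusted p = 0.0534 and 0.0529). The mitochondrial DnaJ homolog PCON_05441 and the copper chaperone PCON_11012 were lower in sexual mycelium than in the pool (−1.02 ± 0.248 and −1.45 ± 0.399). Both calls ended without sexual mycelium 1 or 2 or pool 2 (adjusted p from 0.0515 to 0.162).

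Of the genes beside the chaperone rule, heat shock factor PCON_13419, similar to the transcription factor that drives many of these genes in yeasts, had 91.4 ± 8.92 CPM in protoapothecia and 175 ± 36.5 CPM in sexual mycelium (−0.94, edgeR adjusted p = 0.00308). A list of 16 neighbouring folding and stress genes, chosen by description, held this factor and also trehalose-phosphate synthases. Of the 16, 4 (25%) were lower and 3 (18.8%) higher in protoapothecia than in sexual mycelium, beside 34.5% and 26.7% of all genes. Calnexin (PCON_02340), the lectin chaperone of glycoproteins, was lower (−0.88, adjusted p = 0.00535), while the BiP-like gene PCON_03879 was not called (−1.40, adjusted p = 0.0544). A second gene with the description of PCON_03879, PCON_10308, was higher (0.95, adjusted p = 0.0369), and so was PCON_03131, a glucosyltransferase that marks misfolded glycoproteins (0.58, adjusted p = 0.0401). A further 22 genes carry an HSP70, DnaJ, FKBP_C or GrpE domain without a description that meets the rule, 3 of them also in the list of 16. They were picked after their descriptions were read, and 8 (36.4%) were lower and 7 (31.8%) higher than in sexual mycelium. SSZ1 (PCON_04112), partner of SSB on the ribosome in yeast, was among the lower ones (−3.06, adjusted p = 1.37e-05), as was the J-domain protein mas5 (PCON_10448, −1.63, adjusted p = 0.000164). The J-domain gene PCON_03853 was among the higher ones (2.07, adjusted p = 3.49e-05).

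Members differed in features that the rule did not use. The first localisation given by the deposited WoLF PSORT prediction was cytosolic for 32, nuclear for 29, mitochondrial for 16 and the endoplasmic reticulum for 2 of the 86. A dual label, such as cytosol and nucleus, was counted by its first part, so the cytosolic count includes dual predictions. In protoapothecia, 20 of 31 tested cytosolic members and 10 of 16 mitochondrial ones were lower than in sexual mycelium, beside 10 of 27 nuclear ones. These were 64.5%, 62.5% and 37% of the members, and 37.2%, 32.7% and 38.9% of all tested genes with the same first localisation were lower. The median protein had 401 residues, beside 265 for all genes of the table, and 10 members had a single exon, among them both disaggregases and 5 small heat shock proteins. The beta subunit of CCT has a predicted length of 1382 residues, the longest of all members, in a gene model that holds further domains. The authors' deposited table carries their own consensus calls, by which 34 members (39.5%) were lower and 5 (5.81%) higher in protoapothecia than in sexual mycelium, 25 (29.1%) and 5 against vegetative mycelium, and 32 (37.2%) and 5 against the pool. Over all 13369 genes these calls took 28% and 14.6%, 21.6% and 27.6%, and 24.4% and 25.6%. By the stricter calls of the authors' deposited table, 17 members (19.8%) were lower and 2 (2.33%) higher than in sexual mycelium. Over all genes in that table these shares were 18.6% and 7.67%. Against vegetative mycelium 13 (15.1%) were lower and 5 (5.81%) higher, beside 13.6% and 21.2%. Against the pool 19 (22.1%) were lower and 3 (3.49%) higher, beside 15.8% and 19.7%. The lower shares against sexual and vegetative mycelium were thus close to those of all genes.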

How the data were processed

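The authors deposited 1 table with raw read counts per gene model for 9 libraries, per the file headers. The submitters' processing notes name CASAVA 1.8.2 and DESeq. Which build, aligner, counter and strand setting lay behind the counts is not given in the sources used here. Scaffold coordinates are those of the deposited table. The same table holds the authors' consensus call per gene and comparison as a score of −1, 0 or 1, per the file headers.

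Counts were filtered with filterByExpr (minimum count 10, total 15), scaled with TMM and tested across all 11787 remaining genes with edgeR 4.0.16 in R 4.3.3, by quasi-likelihood in 1 fit of the 4 groups with 5 residual degrees of freedom and Benjamini-Hochberg adjustment at 0.05. The scripts were tested on simulated data. Alternatives were RLE scaling, no filter, DESeq2 1.42.0, only the compared groups in the fit, an offset for gene length, overlapping members left out, each library left out, and the replicate number as a block. A floor of 3 counts equals 0.642 CPM in protoapothecia B and 0.112 to 0.202 CPM elsewhere, and covers counting error only. Replicate libraries differed beyond sampling noise (chi-square per degree of freedom at least 23.5). For 85 of 86 members a locus tag was found in the RefSeq gene table, which holds no sequences.

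Members and lists were chosen with earlier results of these data known. Genes named by rule were, per family, the highest per kb, those with the largest differences and no overlap between groups, those higher in protoapothecia, and the leading ones between mycelium groups; other members were named as parts of a complex or family, after their values were seen. The values of 1 isomerase gene are not reported here; it stays in the counts.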

Additional observations from a re-analysis of the deposited data

How the results depend on the processing

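No result turned its direction past the threshold in any alternative. With 1 library left out, members higher and lower in protoapothecia numbered 9 to 18 and 35 to 44 against sexual mycelium, 8 to 19 and 36 to 43 against vegetative mycelium, and 6 to 16 and 41 to 48 against the pool. Between sexual and vegetative mycelium they numbered 1 to 7 and 1 to 7, between sexual mycelium and the pool 2 to 7 and 4 to 14, and between vegetative mycelium and the pool 0 to 2 and 0 to 4. These mycelium counts moved by over 1.5 times without protoapothecia A or B or without some library of each mycelium group. A group left with 1 library was assumed to vary like the others. RLE scaling, no filter, DESeq2, the gene-length offset and leaving out overlapping members kept the protoapothecium counts within 1.5 times. With only the compared groups in the fit, 7 members were higher and 8 lower in sexual than in vegetative mycelium. Of 11289 genes in that fit, 2951 were higher and 1946 lower. In sexual mycelium 17 members were lower than in the pool, beside 1760 of 11443 genes. In vegetative mycelium 3 members were higher than in the pool, beside 823 of 9698 genes. With the gene-length offset, 14 and 21 members were lower in sexual mycelium than in vegetative mycelium and the pool. Over 11787 genes these counts were 1759 and 1696. DESeq2 called 2 members higher in vegetative mycelium than in the pool, beside 506 of 11787 genes. The cause of these shifts was not tested.

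No label says that the replicate numbers pair the mycelium libraries. Deviations of same-numbered libraries correlated at r = 0.119, −0.157 and −0.0431 across genes, and at 0.546, −0.279 and 0.0774 across the members. Not every pair of groups was thus above 0.1, but with 2 libraries in a group these values cannot show whether the libraries were paired. With the replicate number as a block, 4 members were higher and 3 lower in sexual than in vegetative mycelium. Against the pool these were 4 and 9, and in vegetative mycelium against the pool 0 and 1. Over all genes they were 2211 and 915, 2091 and 928, and 113 and 235. The block with the gene-length offset gave 10 and 19 members lower in sexual mycelium than in vegetative mycelium and the pool. In vegetative mycelium against the pool it gave 0 higher and 1 lower. Over all genes it gave 1406 and 1365 lower, and 135 higher and 209 lower. Protoapothecia took no block term, since their letters match no mycelium number. Among the named members' values, with 1 library left out 134 lost a call, 19 gained one and 2385 stayed on their side of the threshold, and under the other alternatives 25, 45 and 1898 did so. Members at a few counts in protoapothecia B, the shallowest library, are limited by depth.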
